A study of Mus musculus with 6 samples.

Results

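Liver takes up fatty acids through membrane proteins, activates them to coenzyme A esters and carries them in the cytosol on small binding proteins. The genes described here encode 4 fatty acid binding proteins (Fabp1, Fabp2, Fabp4 and Fabp5), the scavenger receptor and fatty acid translocase Cd36, the very long chain acyl-CoA synthetase and transport protein Slc27a2 (FATP2), and the long chain acyl-CoA synthetase Acsl1. They were chosen by name, and their probe sets are all those that the platform's gene table gives to one of these genes alone. This rule found 8 of the 12488 probe sets, for 6 of the 7 genes. Fabp1 and Cd36 had 2 probe sets each, and Fabp2, Fabp4, Fabp5 and Slc27a2 had 1 each. Acsl1 had no probe set under its own name in that table and is not analysed here.

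The arrays hold RNA from livers of the inbred mouse strain C57BL/6, from animals kept for 12 weeks on a high-fat diet of Western style (3 arrays) or on a low-fat diet (3 arrays). The labels' keywords also name LDL receptor deficiency, but the title and description of each of the 6 arrays give C57BL/6 alone. The labels do not give sex, age, diet composition, fasting state or time of day, and do not say whether an array holds 1 mouse or a pool, so p-values measure the spread between these arrays, which may be technical. A difference in a whole liver cannot be assigned to more RNA per cell or to more cells of a type.

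The fatty acid binding proteins are a family of small cytosolic carriers, and each member is known for a tissue. Fabp1 is the abundant carrier of hepatocytes, Fabp2 that of the absorptive cells of the intestine, Fabp4 that of adipocytes, macrophages and some capillary endothelium, and Fabp5 that of epidermis with expression in many other cells. Fabp1, Cd36, Slc27a2 and Acsl1 are among the known targets of the peroxisome proliferator-activated receptors (PPARs), and this naming of members is not complete. PPARs are fatty acid sensing nuclear receptors, with PPAR-alpha prominent in hepatocytes and PPAR-gamma in fat.

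The promoters of Fabp2 and Fabp1, the carriers named for intestine and liver, are shown because Fabp2 was the measured member that rose on the high-fat diet, while Fabp1, the main carrier of hepatocytes, did not pass the test. Each line gives the 250 bases before the annotated transcription start in RefSeq, mouse build GRCm38.p6, 5′ to 3′ on the gene's strand. The Fabp2 stretch is chr3:122894822-122895071 and the Fabp1 stretch is chr6:71199629-71199878, both on the + strand. Capitals mark the nuclear receptor hexamer AGGTCA, which reads TGACCT when it lies on the other strand.
Fabp2: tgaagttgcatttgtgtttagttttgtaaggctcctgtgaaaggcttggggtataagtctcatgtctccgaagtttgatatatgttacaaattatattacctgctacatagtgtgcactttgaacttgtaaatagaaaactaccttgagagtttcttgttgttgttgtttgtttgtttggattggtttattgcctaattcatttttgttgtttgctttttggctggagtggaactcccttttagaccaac
Fabp1: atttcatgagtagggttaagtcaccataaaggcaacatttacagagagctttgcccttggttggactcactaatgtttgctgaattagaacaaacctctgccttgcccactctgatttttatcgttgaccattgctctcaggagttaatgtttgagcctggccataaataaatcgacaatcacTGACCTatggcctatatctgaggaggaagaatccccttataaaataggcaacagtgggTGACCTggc

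The Fabp1 stretch holds the hexamer at 2 places, ending 62 and 4 bases before the start, and both are read as TGACCT. The Fabp2 stretch holds it at 0 places. Promoters of 4 of the 6 measured genes were matched in the table by symbol, and 3 of the 4, those of Fabp1, Cd36 and Slc27a2, hold the hexamer on either strand, against 14% of all 32851 promoter stretches of this length. The full direct repeat of the hexamer with 1 base between, searched without mismatch on both strands, was in 0 of the 4 and in 0.0335% of all stretches. A sterol regulatory element, searched as TCACNCCAC on both strands, was in 0 of the 4 and in 1.05% of all. With shares this low a count of 0 among 4 was nearly fixed in advance and says little about these promoters. Forms of either element with a mismatch were not searched for. The matches found describe these letters only and show no binding.

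On the high-fat diet 1 gene of the group, Fabp2, rose, and the other measured members did not pass the test. Values are the authors' linear intensities, given for arrays 1, 2 and 3 in that order, and group values are means with their SD. The test was limma's on log2 intensities with values below a floor of 68.9 set to it, and p-values were adjusted over 8950 tested probe sets. The threshold was an adjusted p of 0.05. Of the 7 tested member probe sets 1 rose, 0 fell and 6 did not pass. Among all tested probe sets 0.827% passed in either direction with 0.402% higher and 0.425% lower. The 6 that did not pass had adjusted p-values from 0.611 to 0.983 in limma, and Fabp2 was also the only member probe set with an unadjusted p under 0.05, which 4.82% of all tested probe sets reached in the upward direction. All 7 had a log2 change above 0, where 50.5% of all tested probe sets did. Their median log2 change was 0.23, beside 0.003 for all tested probe sets. These 7 values come from the same 6 livers or pools and are not independent of each other.

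Fabp2, the intestinal carrier, read 1874, 2466 and 2763 on high-fat arrays 1, 2 and 3, against 505, 949 and 658 on low-fat arrays 1, 2 and 3. Every high-fat array was above every low-fat array, and the lowest high-fat value was 1.98 times the highest low-fat value. The means were 2368 ± 452 on the high-fat diet and 704 ± 225 under the low-fat diet (SD, n = 3 each). The log2 change was 1.78 ± 0.23 (SE), a 3.43-fold rise with a 95% interval from 2.38-fold to 4.96-fold, and limma's adjusted p was 0.0120. By p-value the probe set ranked 24 of the 8950, and by size of rise it ranked 12. Without high-fat array 2 the log2 change was 1.74 and the adjusted p 0.0570, so the call was lost. It was also lost when the trend of the variance on intensity was left out (adjusted p = 0.0680 in limma) or when dim probe sets were not filtered out (adjusted p = 0.226 in limma).

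Fabp1, the main fatty acid carrier of hepatocytes, was bright in every sample on its main probe set. It read 28485, 28265 and 21876 in the high-fat samples, against 20817, 26016 and 20285 in the low-fat samples. The groups overlapped, since high-fat array 3 was below low-fat array 2. The means were 26209 ± 3754 under the high-fat diet and 22373 ± 3167 under the low-fat diet (SD, n = 3 each). The log2 change was 0.23 with a 95% interval from -0.17 to 0.62, and limma's adjusted p was 0.797. The log2 change was 0.35 without high-fat array 3. The interval leaves room for a rise of up to 1.54-fold, so it does not show that the diets had equal Fabp1.

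A further Fabp1 probe set was dim, at 138, 138 and 107 in the high-fat samples, against 147, 109 and 112 in the low-fat samples. The values of the diets were interleaved. Its log2 change was 0.06 with an interval from -0.53 to 0.64 (limma, adjusted p = 0.983), and its sign turned when 1 of 3 arrays was left out: leaving out high-fat array 1 or 2 gave -0.003 or -0.002, and leaving out low-fat array 2 gave -0.02. The 2 probe sets thus gave no call for Fabp1.

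Fabp4, the carrier of adipocytes and macrophages, was dim but above the floor on all 6 arrays. It read 198, 146 and 132 in the high-fat samples, against 77.4, 130 and 109 in the low-fat samples. The groups did not overlap, but the gap was narrow: the lowest high-fat value was 1.02 times the highest low-fat value. Such separation with high-fat above low-fat was seen in 2 of the 7 member probe sets, Fabp2 and Fabp4, and in 7.34% of all tested probe sets. The log2 change of Fabp4 was 0.60 with an interval from -0.06 to 1.27, and limma's adjusted p was 0.611. Without low-fat array 1 the log2 change was 0.39.

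Cells known to express Fabp4 were followed through marker genes listed for each cell type. Of 12 macrophage markers 10 were tested, and all 10 had a log2 change above 0 while 0 passed the test. Over 6557 genes with 1 probe set each, 51.3% had a log2 change above 0. Their summed intensity ran from 8941 to 10929 in the high-fat samples and from 6796 to 8285 in the low-fat samples, without overlap. How often sums over other genes separate in this way was not counted. The 2 with the smallest p were Mpeg1, 1.86-fold higher (limma, adjusted p = 0.0742), and the adaptor gene Tyrobp, 1.59-fold higher (limma, adjusted p = 0.353). Of the adipocyte markers 4 of 8 were tested and 0 passed, with summed intensities from 1385 to 1737 under the high-fat diet and from 1105 to 1683 under the low-fat diet. The 2 with the smallest p were the nuclear receptor gene Pparg (log2 change 0.83, adjusted p = 0.512 in limma) and the hormone-sensitive lipase gene Lipe (log2 change -0.36, adjusted p = 0.718 in limma). The adipocyte hormone gene Adipoq read 92.5, 200 and 48.3 in the high-fat samples, against 59.4, 110 and 85.9 in the low-fat samples, and Retn was not above the floor on enough arrays to be tested. Most of the adipocyte sum came from the leptin gene Lep, at 947, 1051 and 977 in the high-fat samples, against 891, 1118 and 564 in the low-fat samples. The part of these cells in the Fabp4 and Fabp2 values was not tested.

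Of the endothelial markers 7 were tested and 0 passed, and 2 of the 7 had a log2 change above 0. The 2 with the smallest p were the receptor kinase genes Tie1 and Kdr, with log2 changes of -0.41 and -0.29 (limma, adjusted p = 0.644 and 0.805). The summed intensities of all 7 were 3852 to 4824 under the high-fat diet and 4033 to 4391 in the low-fat samples. Most of this sum came from Eng, at 2543, 2671 and 3222 in the high-fat samples, against 2836, 2828 and 2513 in the low-fat samples. Enterocytes are the cells for which Fabp2 itself serves as a marker. Of 4 tested enterocyte markers 0 passed and 1 had a log2 change above 0. The summed intensity of these 4 was 1162 to 1598 under the high-fat diet and 1290 to 1819 in the low-fat samples. The ileal carrier gene Fabp6 had a log2 change of -0.63 and the aminopeptidase gene Anpep of -0.19 (limma, adjusted p = 0.585 and 0.877). Most of the sum came from Anpep, at 977, 1148 and 811 in the high-fat samples, against 1342, 1185 and 842 in the low-fat samples. The defining genes Vil1 and Cdx2 were not above the floor on enough arrays to be tested. Liver identity was as labelled, with the albumin gene Alb at 49245, 41939 and 38398 in the high-fat samples, against 46802, 42302 and 34920 in the low-fat samples. Of the 9 tested hepatocyte markers 0 passed, and the smallest p-values were those of the tyrosine aminotransferase gene Tat (log2 change -0.79, limma adjusted p = 0.0742) and the urea cycle gene Cps1 (log2 change -0.21, limma adjusted p = 0.830).

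Fabp5, the epidermal carrier, read 474, 601 and 498 in the high-fat samples, against 430, 444 and 575 in the low-fat samples. The diets overlapped, with low-fat array 3 above 2 of the 3 high-fat arrays. Its log2 change was 0.12 with an interval from -0.30 to 0.55 (limma, adjusted p = 0.920). Leaving out high-fat array 2 gave 0.02 and leaving out low-fat array 3 gave 0.26, and neither fit passed.

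**Figure D1:**
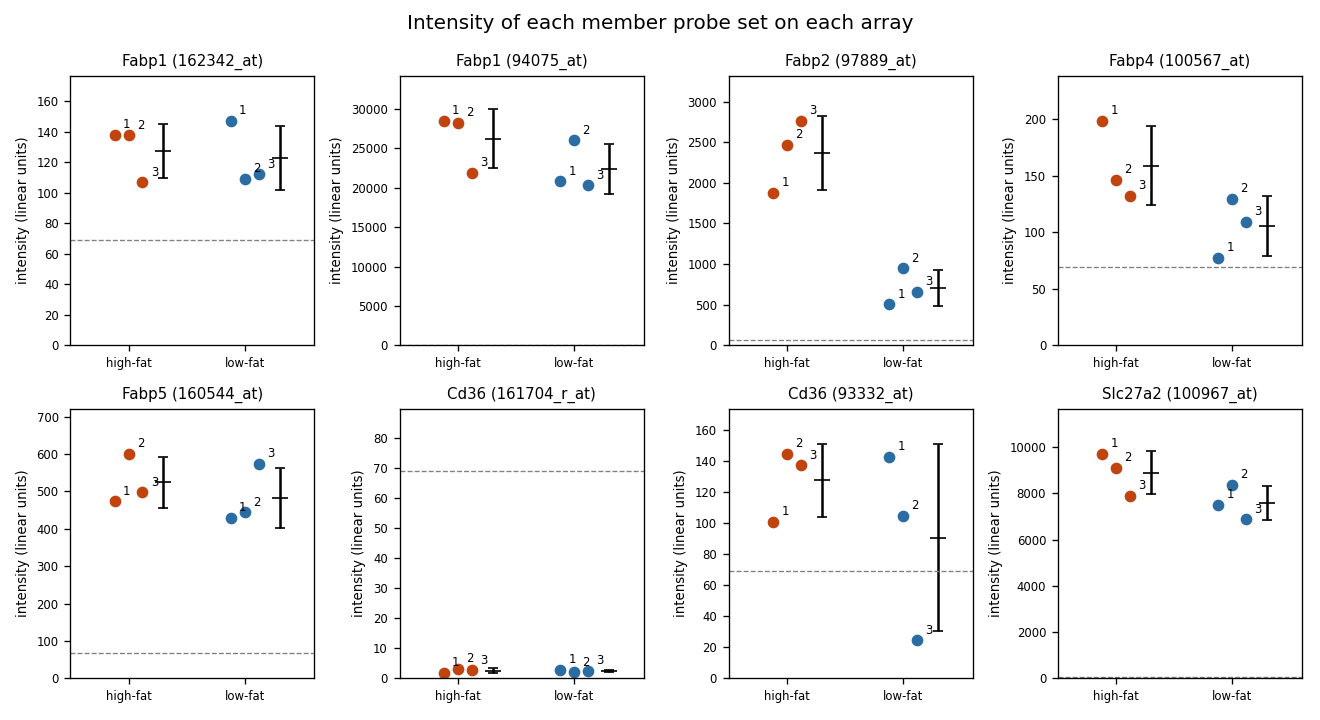
Linear intensity (y axis, from 0, a scale for each panel) of the 8 member probe sets on the 3 high-fat arrays (left, orange) and the 3 low-fat arrays (right, blue); small digits are array numbers, black marks are mean ± SD and the dashed line is the floor of 68.9. Fabp2 is separated between the diets by a wide gap (1874 or more against 949 or less), Fabp4 by a narrow one, and the other panels overlap.

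Cd36, which brings long chain fatty acids across the cell membrane, was dim on its main probe set. It read 101, 145 and 137 in the high-fat samples, against 143, 105 and 24.5 in the low-fat samples. The groups overlapped, and low-fat array 3 lay under the floor, so that 5 of the 6 arrays were above it. The log2 change was 0.32 with an interval from -0.41 to 1.05 (limma, adjusted p = 0.866). The value rested on single arrays of both diets: leaving out low-fat array 3 gave 0.04, leaving out low-fat array 1 gave 0.57, leaving out high-fat array 1 gave 0.48, and none of these fits passed. With the floor at the 10th percentile in place of the 30th it was 0.82 (limma, adjusted p = 0.837). The further Cd36 probe set read from 1.8 to 3.2 in the high-fat samples and from 2 to 2.9 in the low-fat samples, under the floor throughout, and was not tested. The suffix of its name marks relaxed rules for the choice of probes. The interval of the main probe set leaves room for a rise of up to 2.07-fold.

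Slc27a2, the main fatty acid transport protein of hepatocytes alongside Slc27a5, was bright. It read 9702, 9090 and 7889 in the high-fat samples, against 7500, 8370 and 6871 in the low-fat samples. High-fat arrays 1 and 2 were above all low-fat arrays, while high-fat array 3 was below low-fat array 2. The means were 8894 ± 922 under the high-fat diet and 7580 ± 752 under the low-fat diet (SD, n = 3 each). With a log2 change of 0.23 and an interval from -0.07 to 0.53, the gene did not pass the test (limma, adjusted p = 0.712). Its coefficient of variation within a diet, 10.4% under the high-fat diet and 9.92% under the low-fat diet, was the lowest of the 8 member probe sets, against 19.1% and 32.0% for Fabp2.

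Fabp2 was set against each of the other tested probe sets through their log2 ratio within each array. Fabp2 was taken for this because it was the member that passed, so the values are a description with no test. The change of Fabp2 exceeded that of the main Fabp1 probe set by 1.55, of the further one by 1.72, of Slc27a2 by 1.55, of Fabp5 by 1.66, of Cd36 by 1.46 and of Fabp4 by 1.18 on the log2 scale. The 95% interval of Fabp2 was 1.25 to 2.31, and the upper bound of Fabp4 was 1.27.

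Further genes of the same families were read beside the members; they are named for their family, outside the fixed naming rule. The table held 13 further probe sets of 10 genes of the FABP, FATP (Slc27a) and Acsl families, of which 9 probe sets of 8 genes were tested. Of the 9, 0 passed limma's test and 4 had a log2 change above 0. Fabp3, the heart-type carrier, was under the floor on every high-fat array, at 57, 63.1 and 64.7, against 89.7, 109 and 70.5 in the low-fat samples (log2 change -0.36, limma adjusted p = 0.771). It was tested only because its low-fat values lay above the floor. Fabp6 read 132.8, 151.9 and 91.1 in the high-fat samples, against 234.1, 158.5 and 184.1 in the low-fat samples. Its log2 change was -0.63 (limma, adjusted p = 0.585). For Fabp6 every high-fat array was below every low-fat array. The same held for Fabp3, but there the filter fixed both the separation and its direction in advance. No overlap in either direction was seen in 14.1% of all tested probe sets. The further Fabp6 probe set lay under the floor on all arrays and was not tested. Fabp7, the brain-type carrier, had a log2 change of 0.24 (limma, adjusted p = 0.938). Both probe sets of Fabp9, the testis carrier, lay under the floor on all arrays and were not tested.

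Among the transport proteins, Slc27a4 read 296, 285 and 319 in the high-fat samples, against 112, 189 and 243 in the low-fat samples. The arrays did not overlap, and the log2 change of 0.80 with an interval from 0.10 to 1.49 did not pass after adjustment (limma, adjusted p = 0.465). Slc27a5, which also acts as a bile acid-CoA ligase, had a log2 change of -0.09 (limma, adjusted p = 0.951). Acsl5, an acyl-CoA synthetase known in intestine and liver, read 4433, 4599 and 4511 in the high-fat samples, against 3304, 3182 and 3748 in the low-fat samples. These arrays did not overlap, and its log2 change was 0.41 with an interval from 0.15 to 0.66 (limma, adjusted p = 0.238). Among all tested probe sets 14.1% showed no overlap in either direction, and 7.34% had every high-fat array above every low-fat array. Acsl4, a synthetase that prefers arachidonate, had log2 changes of -0.39 and -0.47 on its 2 probe sets (limma, adjusted p = 0.688 and 0.764).

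**Figure D2:**
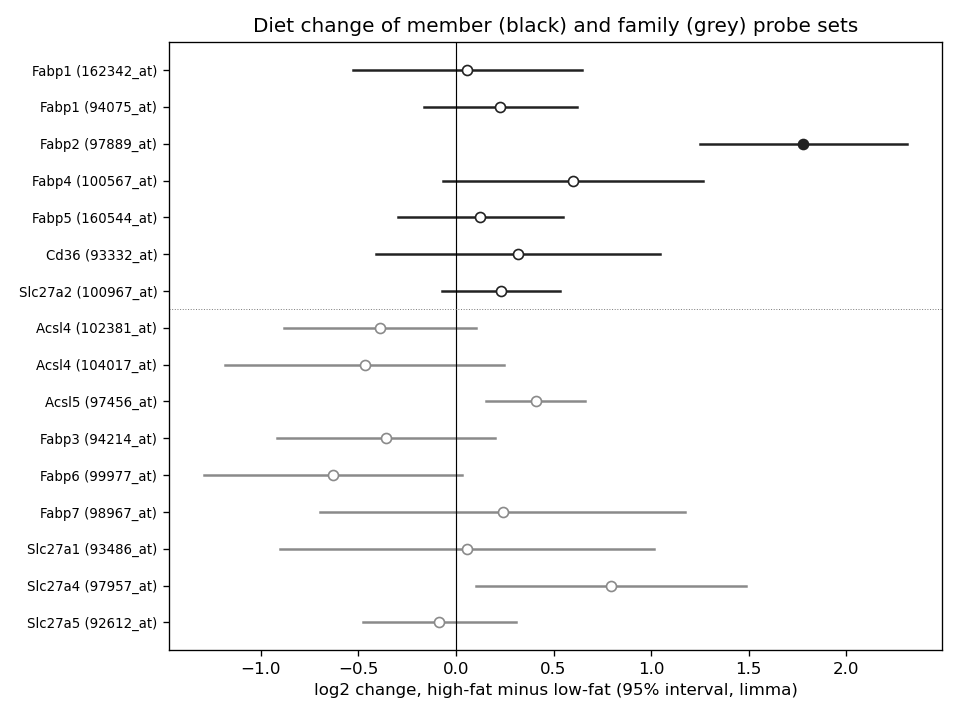
Log2 change (x axis, high-fat minus low-fat) with its 95% limma interval for the 7 tested member probe sets (black) and 9 tested probe sets of the same families (grey); a filled point passed an adjusted p of 0.05. Fabp2, at 1.78, is the filled point, and the intervals of Slc27a4 and Acsl5 lie above 0 without passing after adjustment.

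The wider list of fatty acid binding, transport and activation, which leaves out the members, had 13 tested genes of 20 listed. Of these 0 rose, 0 fell and 13 did not pass, 9 had a log2 change above 0, and the median was 0.15, beside 0.008 over 6557 genes with 1 probe set each. Without Fabp3 the median was 0.19. Among those genes 0.915% passed in either direction and 51.3% had a log2 change above 0. Its smallest p was that of Lpl, the lipase that frees fatty acids from circulating triglyceride, which read 840, 530 and 514 in the high-fat samples, against 274, 276 and 235 in the low-fat samples. Its arrays did not overlap, as in 7.34% of all tested probe sets in this direction. The fold was 2.34, and limma's adjusted p was 0.0539.

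Known targets of PPAR-alpha in liver were read in the same way. Of 15 tested, 2 rose, 0 fell and 13 did not pass, all 15 had a log2 change above 0, and the median was 0.36. Over the 6557 genes with 1 probe set each, 0.915% passed in either direction and 51.3% had a log2 change above 0. The pantetheinase gene Vnn1 was 3.85-fold higher (limma, adjusted p = 0.0217) and the lipid droplet coat gene Plin2 2.71-fold higher (limma, adjusted p = 0.0177). Both lost their call in 4 of 6 fits with 1 array left out, those without high-fat array 2 or any single low-fat array, with adjusted p-values from 0.0626 to 0.0983 for Vnn1 and from 0.0509 to 0.0832 for Plin2 in limma. The tested members named above as known PPAR targets, Fabp1, Cd36 and Slc27a2, did not pass the test. Their log2 changes were above 0, with intervals that reach below 0. That naming is not complete, and whether Fabp2, the member called, is also a target was not examined. A part of PPAR-alpha in the values of any member was not tested. Of 9 tested genes known as targets of PPAR-gamma in fat and fatty liver, 1 rose, 0 fell and 8 did not pass, 6 had a log2 change above 0, and the median was 0.83. The lipid droplet protein gene Cidec, a member of this list, was under the floor on every low-fat array and was tested only because its high-fat values lay above it, so its direction was fixed by the filter. Without it 5 of 8 had a log2 change above 0 and the median was 0.58. The gene that rose was Cidea, a lipid droplet protein gene, at 22.5-fold (limma, adjusted p = 0.00258). It read 1056, 2557 and 3688 in the high-fat samples, against 40.2, 81.8 and 155 in the low-fat samples. Low-fat array 1 was under the floor, so the fold depends on the floor. Of the genes with a log2 change below 0, Pck1 had the smallest p (log2 change -0.78, limma adjusted p = 0.0560). Lpl belongs to this list too, and Pparg, Lipe and Adipoq are shared with the adipocyte markers. The lists leave out the members, Fabp4 among them, whether or not a member is a known target. The lists were set up with earlier results of these livers known, so their counts are descriptions.

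**Figure D3:**
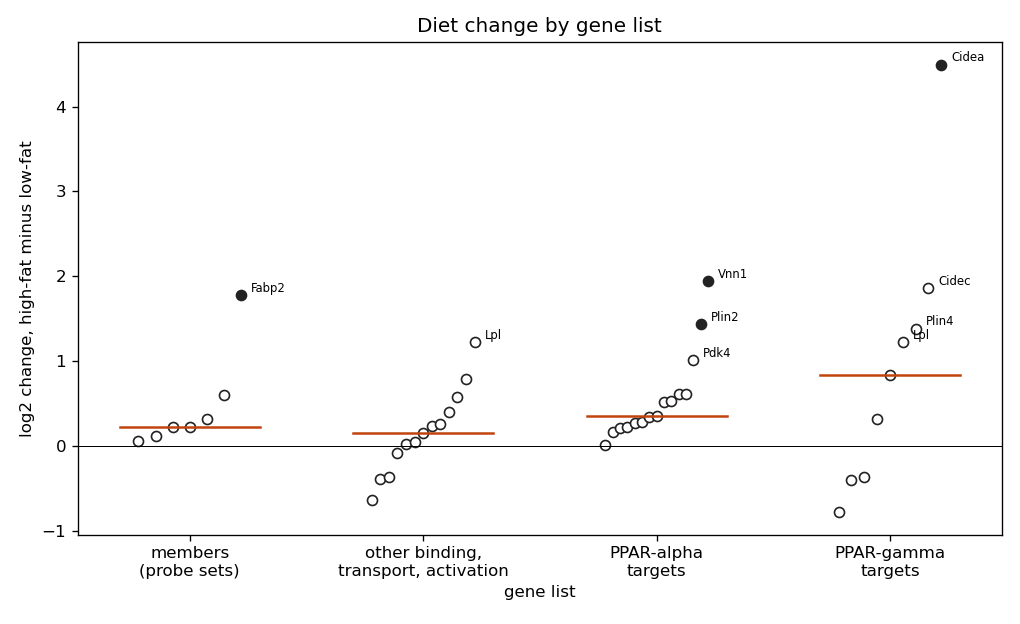
Log2 change (y axis, high-fat minus low-fat) of the 7 tested member probe sets and of the tested genes of 3 lists, 1 point each; filled points passed an adjusted p of 0.05, orange lines are medians, and genes beyond 0.9 in size are named. The medians, with Fabp3 and Cidec included, are 0.23 for the members, 0.15, 0.36 and 0.83 for the lists, and 4 genes carry filled points: Fabp2, Vnn1, Plin2 and Cidea.

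The 4 genes whose pattern over the 6 arrays was most like that of Fabp2 were found by the root mean square difference of log2 values, each gene centred on its own mean. They were Wfdc2, a secreted whey acidic protein gene, at 0.28, Plin2 at 0.31, Vnn1 at 0.33 and Arntl, the core clock gene also called Bmal1, at 0.35. The median over all other genes was 0.97. Wfdc2 read 271, 358 and 422 in the high-fat samples, against 63.4, 205 and 145 in the low-fat samples, so its order of arrays was the same as that of Fabp2 in both diets. In limma Plin2 and Vnn1 passed, and Wfdc2 (adjusted p = 0.238) and Arntl (adjusted p = 0.0523) did not. For Fabp2, Plin2, Vnn1, Wfdc2 and Arntl alike, high-fat array 1 was the lowest of its diet. The 4 genes were picked for nearness to Fabp2, so features shared with it follow from that choice. Wfdc2 on low-fat array 1, at 63.4, lay under the floor.

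For Cd36 the genes of nearest pattern were Slc25a36, Ddr2, Taf1a and Tmsb10, at 0.09 to 0.14, with adjusted p-values from 0.687 to 0.813 in limma. The median over all other genes was 0.45. Each of these was lowest on low-fat array 3 among the low-fat arrays, as Cd36 was. Nearness in pattern over 6 arrays is a description, with no test, and here too shared features follow from the choice of genes.

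**Figure D4:**
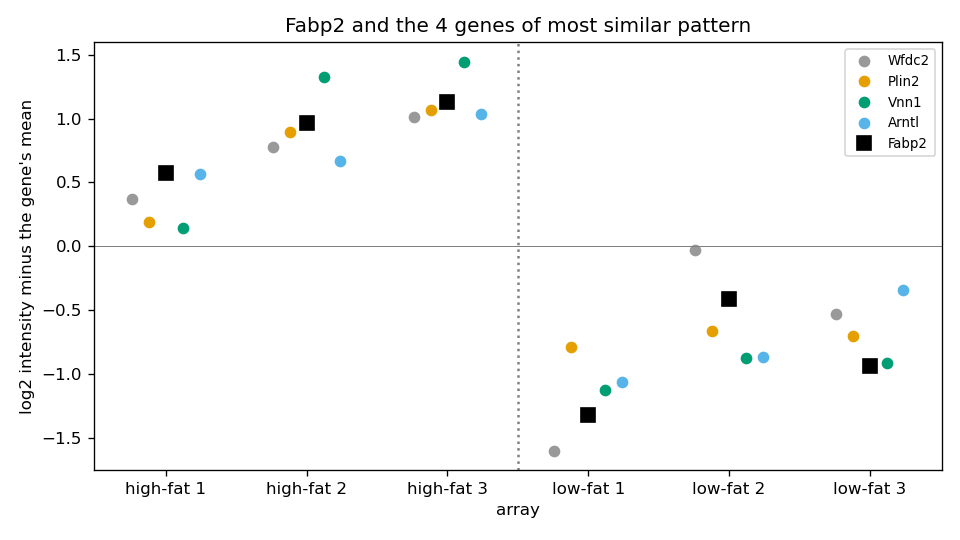
Log2 intensity minus each gene's own mean (y axis) on the 3 high-fat arrays (left) and 3 low-fat arrays (right) for Fabp2 (black squares) and the 4 genes nearest to it. All 5 lie above their mean in the high-fat samples and below it in the low-fat samples, with Wfdc2 on low-fat array 2 closest to 0 among the low-fat points. The 4 genes were picked for nearness to Fabp2, so the shared split follows from that choice.

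Array medians ran from 171 to 188 under the high-fat diet and from 177 to 184 under the low-fat diet. The ratio of the 3′ to the 5′ Gapdh control probe sets, a sign of RNA integrity, was 1.12 ± 0.20 under the high-fat diet and 0.98 ± 0.13 under the low-fat diet (SD, n = 3 each), with an exact permutation p of 0.3. No batch is given in the labels or the table.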

How the data were processed

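The authors deposited 1 linear intensity for each of 12488 Affymetrix probe sets on each of 6 liver arrays. For software, background correction and scaling, the sources used here give no name. The deposited intensities had been scaled as a whole, since their means without the lowest and highest 2% were 499.6 to 499.9. Diet and array number came from the titles. Gene names came from the platform annotation: 10855 probe sets had 1 symbol, 396 several and 1237 were unlisted; 10839 matched RefSeq (GRCm38.p6) by gene ID, which changed 0 symbols.

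Intensities under the pooled 30th percentile, 68.9, were set to it and log2 was taken. Probe sets above the floor on at least 3 arrays, without 66 controls, were fitted with limma 3.58.1 in R 4.3.3 (lmFit, eBayes with trend), two-sided, adjusted by Benjamini and Hochberg. The fit was tested on simulated data. Folds come from the floored log2 scale and understate changes near the floor. The number of arrays limits the precision. For lists, each gene had its tested probe set of highest mean log2 value, and named were all members and, for each list, up to 4 genes past the threshold, or the 2 of smallest p where fewer than 2 passed, and the 4 genes nearest in pattern to Fabp2 and Cd36. Adipoq, Cidec, Pck1, Lep, Retn, Eng, Vil1, Cdx2, Alb and the family members were named outside that rule. Members and lists were chosen with earlier results of these data known. Alternatives covered scaling, floor, filter, variance model, weights, replicate block, suffixes, threshold and each array left out.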

Additional observations from a re-analysis of the deposited data

How the results depend on the processing

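Fabp2 was the 1 member called, and its log2 change stayed between 1.56 and 2.02 in all 18 alternative fits. The number of member probe sets past the threshold was 0 in place of 1 with no filter on dim probe sets, where 8 probe sets of the whole table passed, and 0 with eBayes without trend, where 20 of the table passed. With each array left out it ran from 0 to 1, the 0 being without high-fat array 2, and the count over the table from 26 to 75, beside 74 with all 6 arrays: leaving out high-fat array 2 gave 28, and leaving out low-fat array 1, 2 or 3 gave 31, 26 or 45. At an adjusted p of 0.10 the table gave 120 calls and the members 1. The cause of these differences was not tested. The log2 change of the dim Fabp1 probe set ran from -0.021 to 0.20 with each array left out. The log2 changes of Fabp1 (main probe set), Fabp4, Fabp5, Cd36 and Slc27a2 kept their sign but moved with single arrays (0.02 to 0.26 for Fabp5, 0.04 to 0.57 for Cd36), and stayed short of the threshold in every alternative that gave a value; with the floor at the 50th percentile, Fabp4, Cd36 and the dim Fabp1 probe set were not tested, nor was Cd36 with the filter asking for all 6 arrays. With the replicate number as a block, Fabp2 had a log2 change of 1.78 and an adjusted p of 0.00196 in limma, and 103 probe sets passed. Deviations from the diet means correlated by 0.07, 0.11 and 0.31 (across 8950 probe sets) between arrays numbered 1, 2 and 3, and high-fat array 1 correlated best with low-fat array 2 (0.11). The arrays numbered 3 correlated with arrays 1 and 2 of the other diet by -0.21 to -0.12, and each had the lowest Gapdh 3′ to 5′ ratio of its diet (0.889 for high-fat array 3, 0.824 for low-fat array 3). The labels do not say that a number marks a shared batch, and the pair numbered 1 did not exceed 0.1, so the block was kept as an alternative.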
